A study of Saccharomyces cerevisiae with 23 samples.

Results

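The first 500 bp of long protein-coding genes were examined as a target of Ty1, a retrotransposon of the budding yeast Saccharomyces cerevisiae that copies itself through RNA and inserts the copy elsewhere in the genome. Each deposited interval is 1 aligned read, and intervals with the same chromosome, strand and 5′ end counted as 1 insertion site. Sites counted as members when they lay in the first 500 bp from the start codon of a nuclear protein-coding gene of 1500 bp or more and over 2 kb from any of 275 tRNA genes, with GAL10 and URA3 left out. In the galactose library 5772 of 152129 nuclear sites were members, and in the dextrose library 772 of 11208. The windows belonged to 2247 of 6002 nuclear protein-coding genes, of which 2109 had at least 1 position far enough from tRNA genes and 2064 had all 500.

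Both libraries came from the haploid strain BY4741 (MATa his3delta1 leu2delta0 ura3delta0 met15delta0) carrying the plasmid pJEF2365, and each medium had 1 library. Per the labels, cells were precultured with 2% raffinose and 0.1% dextrose and then kept for 24 h in 2% galactose or, for the second library, 24 h in 2% dextrose. Both cultures then passed through 24 h in dextrose and 24 h in dextrose with 1 mg/mL 5-FOA, which kills cells that still make the URA3 enzyme, and the 5-FOA step was done again for 24 h. For these first 24 h the treatment field gives complete medium but the growth protocol a medium lacking uracil, and the discrepancy is not settled here. Genomic DNA was cut with MseI, joined to an adaptor, cut with BglII and amplified between a primer site called SSB and the adaptor, with fragments of 200 to 1000 bp kept. The series also holds 21 MNase-seq samples, which map nucleosomes and were not analysed here.

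Ty1 integrase is known to be guided to genes transcribed by RNA polymerase III, chiefly tRNA genes, through contact with that polymerase, and Ty1 inserts into nucleosomal DNA upstream of them. Genes transcribed by RNA polymerase II are poor targets, and an insertion in their coding part usually destroys the gene. Just downstream of the start of transcription lies the first nucleosome of the gene, preceded by a nucleosome-depleted promoter, so the start of a coding sequence is the part of a gene where nucleosomes are most regularly placed. Joining of the Ty1 ends to staggered cuts leaves a short duplication of the target on both sides of the insertion.

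The 2 libraries differed in depth and in the kind of interval that made up the members. The galactose members were covered by 7458 intervals, a mean of 1.29 per site with 18.4% of sites covered by 2 or more, and the dextrose members by 798 intervals, a mean of 1.03 with 3.37% of sites covered by 2 or more. Merging sites on the same strand within 5 bp left 4516 of the 5772 galactose and 746 of the 772 dextrose members. Members a few bp apart are thus not necessarily separate insertions. Full-length intervals of 96 bases made up 24.5% of the galactose member intervals (95% Clopper-Pearson interval 23.5 to 25.4) and 11.3% of the dextrose member intervals (9.17 to 13.7). Within 1 kb of a tRNA gene the same class made up 60.7% of the galactose and 64.2% of the dextrose intervals. Intervals of 50 to 95 bases were the largest class at gene starts, with 73.1% in galactose and 86.0% in dextrose. In the dextrose library these were concentrated at particular lengths: intervals of 54 or 78 bases alone made up 43.7% of the member intervals (40.3 to 47.3), against 8.51% in galactose.

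The classes also differed in how often both libraries held the same position. In dextrose 255 of the 349 member sites of 54 or 78 bases (73.1%) and 366 of the 661 sites of 50 to 95 bases (55.4%) were also galactose sites. Of the 90 dextrose member sites of 96 bases, 11 (12.2%, 95% interval 6.26 to 20.8) were. Over all lengths 385 sites were shared, which is 6.67% of the galactose members and 49.9% of the dextrose members. The same shares in the middle 500 bp of the genes were 6.99% in galactose and 49.1% in dextrose. Among galactose intervals of 50 to 95 bases, 47.9% in the first 500 bp shared their 5′ end with another interval and 0.807% shared their 3′ end, whereas within 1 kb of a tRNA gene 6.98% shared the 5′ end and 75.1% the 3′ end. What the intermediate intervals represent was not tested, and results are given for them and for 96-base intervals separately.

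**Figure D1:**
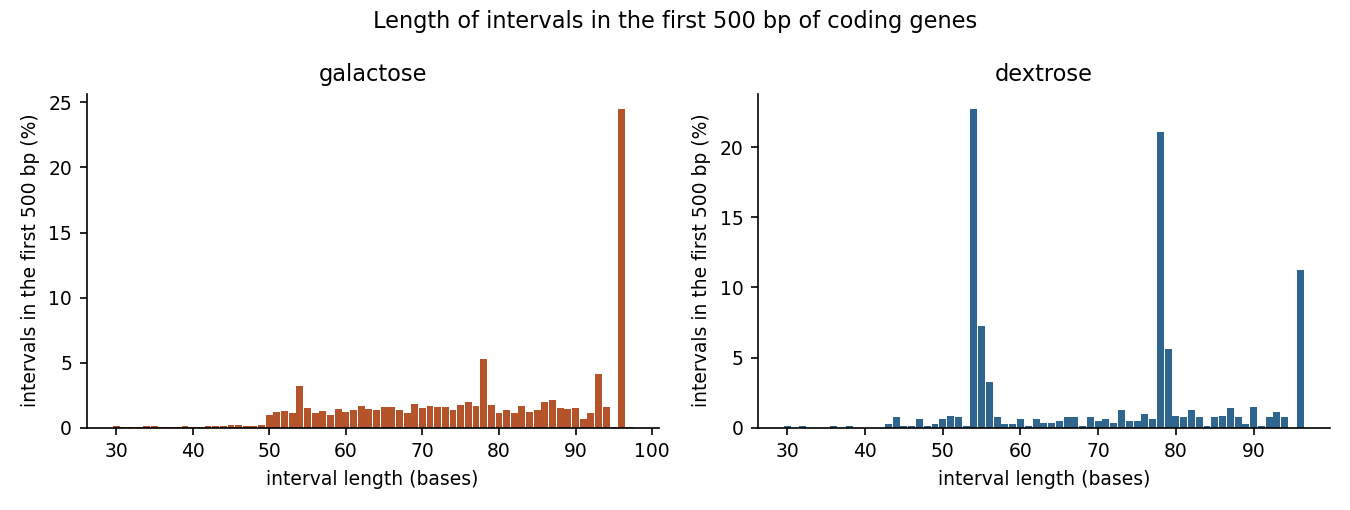
Percentage of member intervals (y axis) by interval length in bases (x axis) for the galactose library (left) and the dextrose library (right). The galactose panel has its highest bar at 96 bases, with 24.5% of intervals, while in dextrose the lengths 54 and 78 together hold 43.7% and the length 96 holds 11.3%.

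Gene starts held a somewhat smaller share of the galactose sites than of the dextrose sites. Of the sites over 2 kb from tRNA genes, 8.32% (95% interval 8.12 to 8.53) lay in the first 500 bp in galactose and 9.68% (9.04 to 10.4) in dextrose, where the windows took up 9.45% of the positions. The difference was -1.36 percentage points (95% Newcombe interval -2.06 to -0.698). Among 96-base intervals the shares were 7.60% (1824 of 23992) in galactose and 9.50% (90 of 947) in dextrose, a difference of -1.90 points (-3.96 to -0.160). Among intervals of 50 to 95 bases they were 9.03% in galactose and 9.77% in dextrose, a difference of -0.73 points (-1.51 to 0.00306). With 1 library per medium no difference between media has a replicate check, no test was made, and all intervals cover counting error only.

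In galactose, full-length sites were denser in the first 500 bp of genes than in their middle, and their density there could not be told from that in the last 500 bp. The 1824 members of 96 bases gave 1.75 sites per kb (95% exact Poisson interval 1.67 to 1.83), against 1.28 (1.21 to 1.35) in the middle and 1.70 (1.63 to 1.78) in the last 500 bp. The first 500 bp exceeded the middle 1.37-fold (95% exact conditional interval 1.28 to 1.47). Against the last 500 bp the ratio was 1.03 (0.963 to 1.10), so both ends of the gene exceeded the middle and the excess was not particular to the start. The 500 bp upstream of the start codon held 3.66 sites per kb, and noncoding positions in general 3.87. Gene starts thus held 0.452 times the noncoding density (0.430 to 0.475). The noncoding positions kept the flanks of RNA polymerase III genes other than tRNA genes, here and in the other ratios to noncoding density.

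Intervals of intermediate length gave no such pattern. Galactose sites of 50 to 95 bases had 3.75 per kb in the first, 3.69 in the middle and 3.77 in the last 500 bp, and the first-to-middle ratio of 1.02 (0.972 to 1.06) included 1. Over all intervals, where the intermediate class is the most numerous, the galactose densities were 5.54 per kb in the first, 4.97 in the middle and 5.55 in the last 500 bp. The ratio to the middle was then 1.11 (1.07 to 1.16) and that to the last 500 bp 0.998 (0.962 to 1.03). Restricted to sites with at least 2 intervals, the galactose ratio to the middle turned to 0.971 (0.892 to 1.06). Of the galactose member intervals, 6.25% of those of 96 bases and 47.9% of those of 50 to 95 bases shared their 5′ end with another interval. This restriction therefore left out most full-length sites and cannot check their excess.

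The dextrose library held too few full-length sites for more than a coarse comparison. It had 90 sites of 96 bases in the first, 63 in the middle and 80 in the last 500 bp. The first-to-middle ratio was 1.46 (1.05 to 2.05) and the first-to-last ratio 1.14 (0.835 to 1.56). Over all dextrose intervals the densities were 0.741 per kb in the first, 0.707 in the middle and 0.686 in the last 500 bp, with ratios of 1.05 (0.947 to 1.16) to the middle and 1.08 (0.974 to 1.20) to the last 500 bp. With windows of 300 bp the dextrose ratio to the middle was 0.941 (0.822 to 1.08). Upstream of the genes dextrose had 0.694 sites per kb and at noncoding positions 0.734, so its gene starts were at 1.01 times the noncoding density (0.928 to 1.10). In galactose the same ratio over all intervals was 0.614 (0.597 to 0.632). Among 96-base sites gene starts held 0.666 times the noncoding density in dextrose (0.523 to 0.841), so full-length sites were sparser at gene starts than at noncoding positions in both libraries. The intervals treat sites as independent, while per-gene counts of galactose 96-base members varied with a variance of 1.52 times their mean, against 1.04 in dextrose, so the galactose intervals are too narrow.

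**Figure D2:**
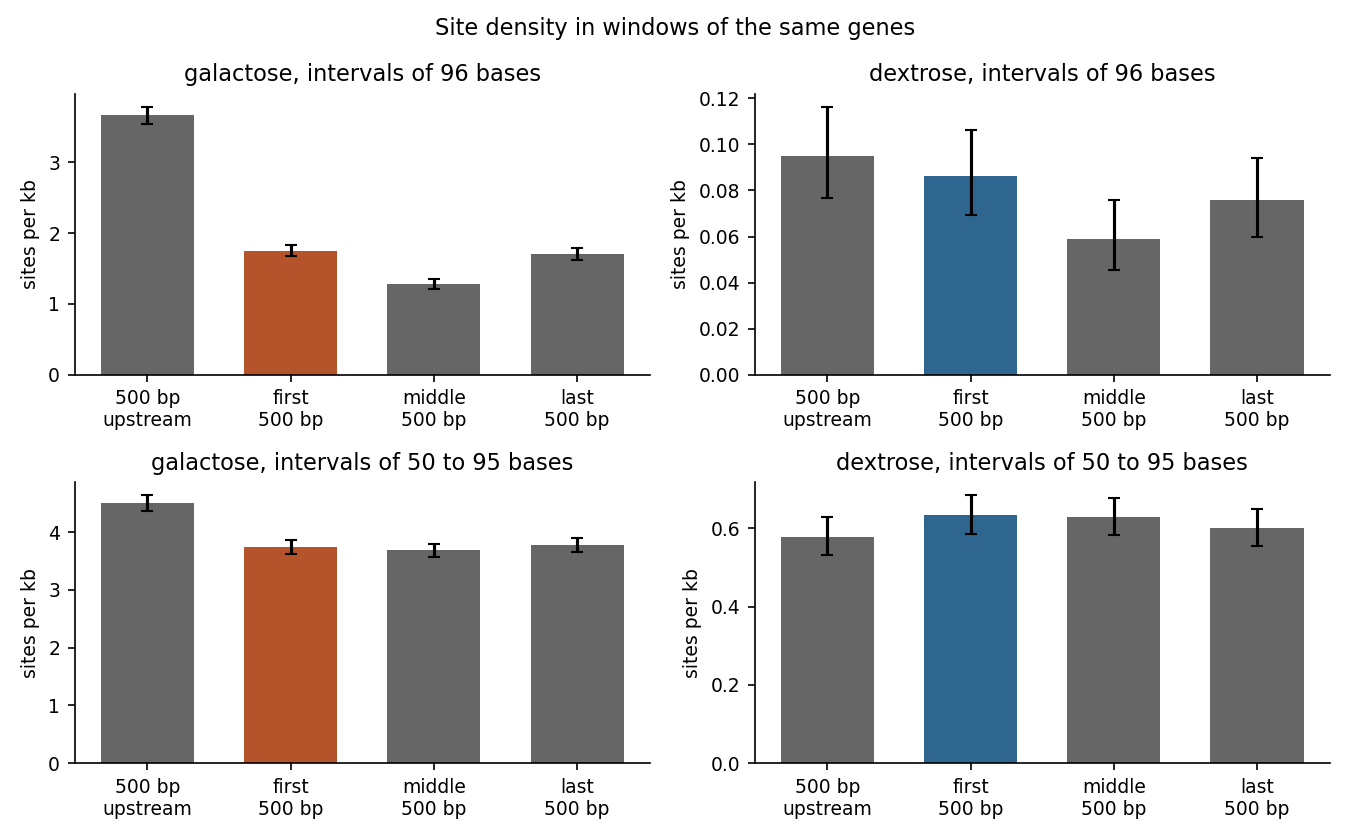
Sites per kb (y axis, from 0, with a scale of its own in each panel) in the 500 bp upstream of the start codon and the first, middle and last 500 bp of the same genes, for galactose (left) and dextrose (right), 96-base intervals (top) and 50 to 95 bases (bottom); bars give the density, whiskers the 95% exact Poisson interval, and the first 500 bp is coloured. In galactose the 96-base bars stand at 1.75 for the first, 1.28 for the middle and 1.70 for the last 500 bp, while those of 50 to 95 bases lie between 3.69 and 3.77.

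Along whole genes, full-length galactose sites fell into a shallow U. With each gene divided into 10 equal parts, the opening part held 1.89 sites per kb (1.78 to 2.01) and the closing part 1.70 (1.59 to 1.81), while the parts between ranged from 1.03 to 1.42. The part next to the opening one was at 1.28. Towards the stop codon the last 3 parts held 1.23, 1.42 and 1.70. Sites of 50 to 95 bases stayed between 3.45 and 3.75 per kb in all 10 parts. In dextrose, sites of 50 to 95 bases were at 0.539 per kb in the opening part and between 0.549 and 0.684 in the rest. Its 96-base sites numbered 26 to 50 per part and gave 0.0810 per kb in the opening part.

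**Figure D3:**
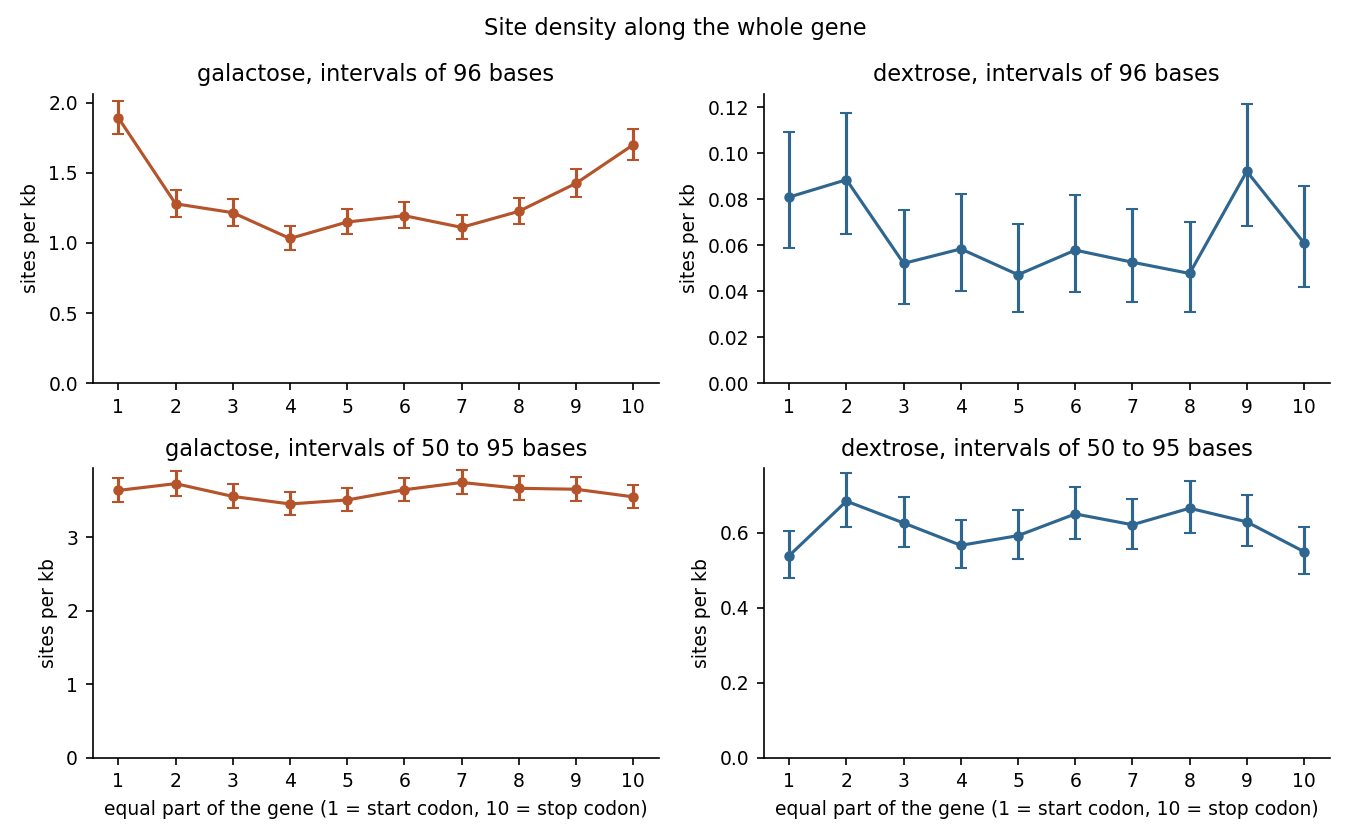
Sites per kb (y axis, from 0, scaled per panel) in each of 10 equal parts of genes of 1500 bp or more from start to stop codon (x axis), for galactose (left) and dextrose (right), with 96-base intervals above and 50 to 95 bases below; points are densities and whiskers 95% exact Poisson intervals. Galactose 96-base sites are highest in the opening part (1.89) and the closing part (1.70), and those of 50 to 95 bases stay between 3.45 and 3.75.

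Within the first 500 bp, full-length galactose sites were concentrated at the very beginning of the coding sequence. In 10 bp bins the median was 35 sites, and the bins from 1 to 70 bp held 49, 58, 55, 61, 44, 68 and 52. These 7 bins were all among the 10 highest of the 50, with the peak of 68 at 51 to 60 bp and the lowest count of 21 at 461 to 470 bp. The first 70 bp held 2.65 sites per kb and the remaining 430 bp held 1.60, a ratio of 1.65 (1.48 to 1.85). The 70 bp limit was chosen after the profile was seen, so this ratio describes the profile and is no test. By 100 bp blocks the density was 2.42, 1.77, 1.65, 1.45 and 1.47 per kb from the start codon onwards.

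The beginning of the gene continued a higher level upstream of it. In the 100 bp before the start codon galactose had 3.46 full-length sites per kb, with 2.58 in the next 100 bp block upstream and 4.35 in the one beyond that. The block at 2.58 was the lowest of the 5 upstream blocks, and it still exceeded the 2.42 of the first 100 coding bp. In the sites of 50 to 95 bases the first 70 bp were at 1.00 times the rest (0.915 to 1.10), and their highest bin, with 107 sites, lay at 271 to 280 bp.

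Over all intervals dextrose did not show a peak at the beginning of genes. Its first 70 bp held 0.603 sites per kb and the rest 0.763, a ratio of 0.791 (0.626 to 0.988). The same ratio over all galactose intervals was 1.23 (1.14 to 1.31). For dextrose sites of 50 to 95 bases it was 0.728 (0.560 to 0.934). Over all dextrose intervals the highest bins, with 26 sites each, lay just past 300 bp and at 331 to 340 bp. The lowest, with 6, lay at 51 to 60 bp. The fourth of the 5 blocks of 100 bp held 197 dextrose sites, and the other blocks held 129 to 155. Of the 90 dextrose sites of 96 bases, 15 lay in the first 70 bp, a ratio of 1.23 (0.655 to 2.16). That interval took in both 1 and the galactose 96-base value of 1.65, so a peak in this class was neither shown nor excluded.

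**Figure D4:**
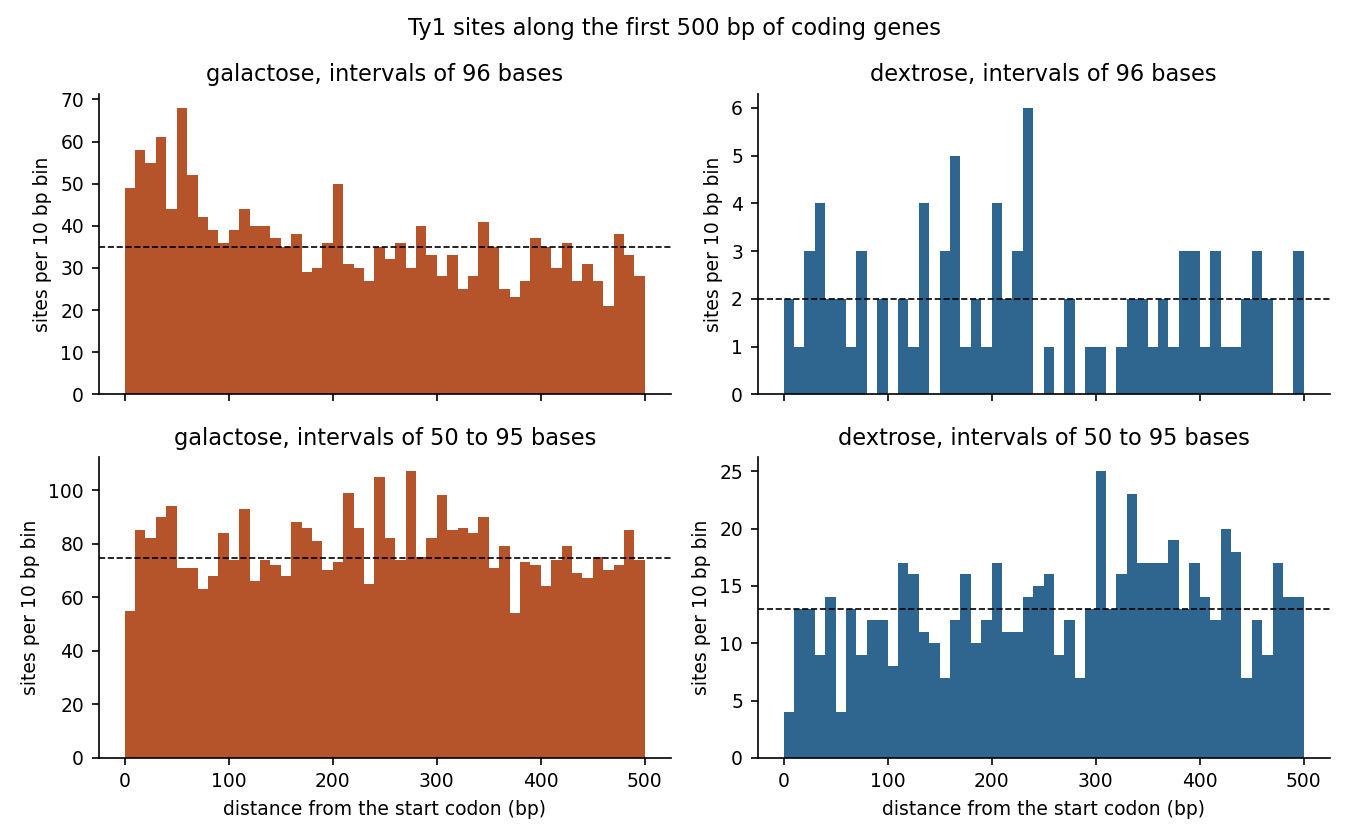
Number of sites per 10 bp bin (y axis, from 0, scaled per panel) against distance from the start codon in bp (x axis), for galactose (left) and dextrose (right), with 96-base intervals above and 50 to 95 bases below; the dashed line is the median over the 50 bins. Galactose 96-base bins reach 68 at 51 to 60 bp against a median of 35, while in dextrose the highest bin of 50 to 95 bases, with 25 sites, lies just past 300 bp.

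No single spacing was found in every interval class. The spacing was taken as the lag with the highest autocorrelation peak between 40 and 250 bp, after smoothing over 10 bp and subtraction of a running mean. In galactose it was 234 bp for all intervals, 228 bp for 96-base intervals and 63 bp for 50 to 95 bases, with autocorrelations of 0.178 to 0.195. In dextrose it was 126 bp for all intervals, 183 bp for 96 bases and 126 bp for 50 to 95 bases, at 0.221 to 0.288. The middle and last 500 bp gave peaks of like height, 0.130 to 0.317 in galactose and 0.136 to 0.271 in dextrose, at lags from 51 to 211 bp. At a lag of 160 bp, near the repeat length of yeast nucleosomes, the members' autocorrelation was -0.0690 for all galactose intervals. It was -0.0119 for galactose 96-base intervals, 0.0110 for all dextrose intervals and 0.0973 for the 90 dextrose 96-base sites. Split by strand, in galactose the sense and antisense profiles peaked at 126 and 231 bp for all intervals. They peaked at 126 and 69 bp for 50 to 95 bases and at 153 and 143 bp for 96 bases. These 96-base peaks had heights of 0.174 and 0.277, and at 160 bp the same profiles were at 0.151 and -0.0626. In dextrose the 96-base strands were at 0.0217 and 0.168 at 160 bp, on 51 and 39 sites. Profiles were aligned on the start codon and not on the start of transcription.

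Members fell almost evenly on both strands, and the strand changed with position rather than over the window. A site on the strand of the gene was called sense. In galactose 50.5% of the members were sense (49.2 to 51.8), against 49.8% in the middle and 46.6% (45.3 to 47.9) in the last 500 bp. Among 96-base intervals the values were 51.5% (49.2 to 53.8) in the first, 47.9% in the middle and 45.3% in the last 500 bp. In dextrose 52.8% of the members were sense (49.3 to 56.4), against 49.9% in the middle and 44.6% in the last 500 bp.

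The strand share shifted at both gene ends, in opposite directions. In galactose, 96-base sites were 59.9% sense (56.2 to 63.5) in the 100 bp before the start codon, 52.8% (48.3 to 57.2) in the first 100 bp of the gene and 32.5% (28.0 to 37.2) in the last 100 bp of the gene. The sites of 50 to 95 bases had 58.5%, 55.6% (52.0 to 59.1) and 35.6% in the same blocks. Over all dextrose intervals the blocks had 60.6%, 62.8% (53.8 to 71.1) and 31.7%. The dextrose 96-base sites had 63.6% (40.7 to 82.8), 65% (40.8 to 84.6) and 29.4% (10.3 to 56.0), on 22, 20 and 17 sites, and these intervals and that of the galactose 96-base sites in the first 100 bp included 50%. At either end the more frequent strand was the one on which the interval, read from its 5′ end, runs into the gene. A read could be recovered only near an MseI site, and the positions of these sites were not used here. Further into the gene the 4 remaining blocks of the first 500 bp had 55.2%, 42.7% (37.4 to 48.1), 54.3% and 52.0% sense sites among galactose 96-base members.

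**Figure D5:**
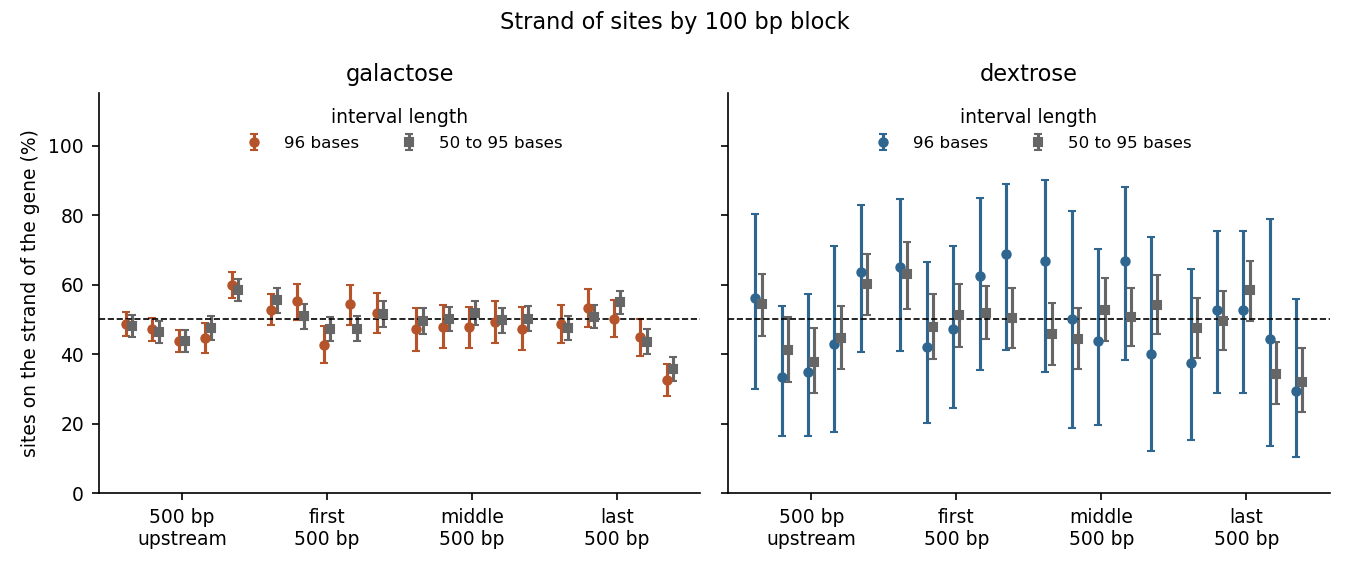
Percentage of sites on the strand of the gene (y axis) in 100 bp blocks of the 500 bp upstream and of the first, middle and last 500 bp (x axis), for galactose (left) and dextrose (right); circles are 96-base intervals, squares 50 to 95 bases, whiskers 95% Clopper-Pearson intervals and the dashed line 50%. In galactose the 96-base sites are at 59.9% in the 100 bp before the start codon and at 32.5% in the last 100 bp of genes.

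Some members lay opposite each other on the 2 strands at an offset of a few bp, which differed between interval classes and libraries. Among galactose 96-base members, 35 pairs had the Crick-strand 5′ end exactly 4 bp to the right of the Watson-strand 5′ end, so that the ends enclosed 5 positions, the length of the known Ty1 target duplication. Offsets of 3 and 5 bp had 11 and 6 pairs, and the 22 other offsets between -12 and 12 bp had 2 to 8 with a median of 3. Without the gene GIT1, 28 pairs were left at 4 bp. The members of 50 to 95 bases were spread more widely, with 198, 139 and 134 pairs at 3, 4 and 5 bp, 54 at 6 bp, and 0 to 54 with a median of 4 over the other offsets. In dextrose no 96-base pair lay at 3, 4 or 5 bp, and over all dextrose intervals the counts were 2, 2 and 25, with 16 pairs at 6 bp and 0 to 16 over the other offsets.

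Distance from tRNA genes still graded the members beyond the 2 kb limit. In galactose the first 500 bp of genes held 4.67 full-length sites per kb (3.75 to 5.75) where they lay 2 to 2.5 kb from the nearest tRNA gene, just inside the limit, and 5.31 (4.39 to 6.37) at 1.5 to 2 kb, just outside it. The density was 5.98 at 2.5 to 3 kb, of which GIT1 supplied 40 of 131 sites and without which it was 4.24. It was then 2.54 at 3 to 5 kb, 1.74 at 5 to 10 kb, 1.57 at 10 to 20 kb and 1.42 (1.31 to 1.52) beyond 20 kb. Nearer than 1 kb, among positions that the rule leaves out, it was 19.7.

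The excess of gene starts over gene middles was present on far stretches too. Beyond 20 kb from tRNA genes the galactose 96-base density was 1.42 per kb in the first and 1.11 in the middle 500 bp, a ratio of 1.27 (1.14 to 1.43). At 5 to 10 kb the ratio was 1.43 (1.20 to 1.72) and at 10 to 20 kb 1.27 (1.09 to 1.47). Over all dextrose intervals the density of the members ranged only from 0.683 to 0.783 per kb over the same classes of distance. The dextrose 96-base members were at 0.158 per kb at 2 to 2.5 kb and 0.228 at 2.5 to 3 kb, on 3 and 5 sites, and at 0.0758 beyond 20 kb, on 38 sites. At the other limit of the rule, genes of 1500 to 1599 bp had 2.24 galactose 96-base sites per kb in their first 500 bp, and genes of 1400 to 1499 bp, which were left out, had 2.25.

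The excess held across kinds of gene. For galactose 96-base sites the ratio of the first to the middle 500 bp was 1.29 (1.16 to 1.43) in genes of 1500 to 1999 bp, 1.42 (1.26 to 1.60) in those of 2000 to 2999 bp and 1.46 (1.24 to 1.72) in those of 3000 bp or more. The ratio was 1.31 (1.18 to 1.45) where the upstream neighbour is divergent and 1.40 (1.26 to 1.55) where it lies in tandem. In the 51 genes with an overlapping neighbour it was 2.83 (0.933 to 9.49), on 10 sites in the first and 6 in the middle 500 bp, and its interval included 1. Genes with an upstream gap under 250 bp had 1.32, those with 250 to 499 bp 1.35 and those with 500 bp or more 1.36. Genes on the Watson strand had 1.41 and those on the Crick strand 1.32. The ratio was above 1 on each of the 16 chromosomes, with a median of 1.29. It was lowest on chromosome XI, at 1.01 (0.743 to 1.38), and highest on chromosome II, at 1.79 (1.31 to 2.46). On several chromosomes, XI among them, the interval included 1. The groups' intervals overlap, and differences between them were not tested.

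Over all intervals most genes had a galactose site at their start, and about as many had one in their other windows. Most of these intervals were of 50 to 95 bases, and what those represent was not tested. Of the 2071 genes with at least 400 positions far enough from tRNA genes, 83.4% (1727 genes) had at least 1 galactose site in the first 500 bp, and 48.9% (1012) had one of 96 bases. In dextrose 29.5% (610) had a site and 4.15% (86) one of 96 bases. Among the 1985 genes with all 3 windows complete, a galactose site lay in the first 500 bp of 83.7%, the middle of 81.2% and the last 500 bp of 82.8%. In dextrose these shares were 29.5%, 29.9% and 28.0%. Of the same genes 957 (48.2%, 46.0 to 50.4) had a galactose 96-base site in the first, 790 (39.8%, 37.6 to 42.0) in the middle and 940 (47.4%) in the last 500 bp. The first 500 bp held more such sites than the middle in 673 genes (33.9%) and fewer in 484. Against the last 500 bp it held more in 615 genes (31%) and fewer in 614. Over all galactose intervals 905 genes (45.6%) had more in the first than in the middle and 742 fewer, and in dextrose 442 genes (22.3%) had more and 438 fewer. Over all galactose intervals 372 of the 1985 genes held 5 or more members and 16 held 10 or more, while 54 had no site in any of the 3 windows. Reads in genes with near-identical copies could be lost in mapping, so these 54 genes were not shown to be free of insertions.

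GIT1, which encodes a permease for glycerophosphoinositol in the plasma membrane, held by far the most members. It lies on chromosome III at 297049 to 298605 (R64, Crick strand), and its start codon is 3049 bp from the nearest tRNA gene. Its first 500 bp held 52 galactose sites, against 36 in the middle, while its last 500 bp lay wholly within 2 kb of that tRNA gene and held no eligible position. Of the 52 sites, 45 were of 96 bases and 2 of 50 to 95 bases, 30 were sense and 22 antisense. By 100 bp blocks they numbered 17, 19, 5, 5 and 6. In dextrose GIT1 held 2 members, both of 96 bases.

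After GIT1 the galactose counts dropped to 13 sites in a gene. RAD30, which encodes the translesion DNA polymerase eta, and MNN1, a mannosyltransferase of the Golgi, had 13 each. YDR341C, the cytosolic arginyl-tRNA synthetase, POX1, the acyl-CoA oxidase of peroxisomal fatty acid breakdown, SSP1, a protein of spore membrane formation, and PRM1, which acts in cell fusion during mating, had 12 each. DSF2, the glycerol transporter gene STL1 and the meiotic helicase gene HFM1 had 11 each. The dextrose counts of these 9 genes were 0 to 2.

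MNN1 had 13 galactose sites in the first 500 bp, 2 in the middle and 6 in the last, with all 500 positions of each window eligible. STL1 had 11, 4 and 1, and HFM1 had 11, 3 and 2 in the same windows, also complete. PRM1 had 12, 5 and 3. SSP1 went the other way, with 12 galactose sites in the first 500 bp and 19 in the middle, of which 354 positions were eligible, and no eligible position in its last 500 bp. Its 96-base sites numbered 6 in the first 500 bp and 12 in the middle. RAD30 and POX1 had no eligible position in the middle or last window, and YDR341C had 23 in the middle and 0 in the last, so no comparison within these genes was possible. In POX1 all 12 sites lay between 151 and 410 bp, whereas YDR341C had 7 of its 12 within the first 100 bp.

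Several of the most-hit genes lay close to a tRNA gene. The first 500 bp reached within 3 kb of a tRNA gene in 5 of these 10 genes, namely GIT1, RAD30, YDR341C, POX1 and SSP1, against 92 of all 2071 genes (4.44%). Ranked by 96-base sites, 6 of the 10 highest genes did so. That ranking added SHC1 and PIG1 with 10 sites each, PXA2 with 8 and URA8 with 7. SHC1 acts in chitin synthesis during sporulation, PIG1 in glycogen accumulation, PXA2 in fatty acid import into peroxisomes and URA8 in CTP synthesis. All 10 members in SHC1 and in PIG1 were of 96 bases. These genes were ranked by their counts, which are therefore a description.

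The dextrose library gave no gene a comparable number. UTP14, which acts in ribosomal RNA processing, had the highest count with 4 dextrose sites, 2 of them of 96 bases, against 9 galactose sites, all of 50 to 95 bases. NDE2, a mitochondrial NADH dehydrogenase gene, ACK1, VPS41, whose product acts in vacuolar protein sorting, and JIP4 had 3 dextrose sites each. None of these 5 genes reached within 3 kb of a tRNA gene. Their galactose counts were 4 in NDE2, 3 in ACK1, 5 in VPS41 and 3 in JIP4.

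Gene families were set beside the median of 2 galactose members per gene and the mean of 2.76 over all 2071 genes, of which 83.4% had at least 1 galactose member and 29.5% at least 1 dextrose member. The first, middle and last 500 bp of all 2071 genes held 5715, 5123 and 5479 galactose sites. The 9 eligible genes of RNA polymerase III and its initiation factors, the machinery that directs Ty1 to tRNA genes, held 24 galactose members (2.67 per gene, 95% interval 1.71 to 3.97), against 16 sites in the middle and 39 in the last 500 bp. All 9 had at least 1 member, and TFC3, a subunit of the initiation factor TFIIIC, and RET1, a large polymerase subunit, led with 4 each. In dextrose the 9 genes held 7 members in 6 genes, against 1 site in the middle and 1 in the last 500 bp, where all 2071 genes held 771, 737 and 693 sites in these windows. The 6 other lists held 5 to 9 dextrose members in 4 to 7 genes each, against 4 to 8 sites in the middle and 3 to 9 in the last 500 bp. The 21 eligible genes of chromatin remodelling complexes had 45 members (2.14 per gene), against 55 in the middle and 44 in the last 500 bp. The members lay in 15 of these genes. IOC3, of an ISW1 complex, had 6 galactose members, and RSC4, of the RSC complex, had 5.

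The 3 lists of membrane transporters had means per gene whose 95% intervals included the mean of all genes. The 19 hexose transporter genes had 49 galactose members (2.58 per gene, 1.91 to 3.41), against 49 in the middle and 53 in the last 500 bp. Of the 19 genes, 12 had a member, the median was 1 member per gene, and HXT14 with 9 and HXT10 with 8 led. Several hexose transporter genes are near-identical, so reads in them could be lost or misplaced in mapping, and their counts are uncertain. The 16 ABC transporter genes had 42 members, against 57 in the middle and 48 in the last 500 bp, led by MDL2, of the mitochondrial inner membrane, with 7 and YCF1, of the vacuole, with 5. The 16 eligible amino acid permease genes had 32 members (2.00 per gene, 1.37 to 2.82), against 45 in the middle and 69 in the last 500 bp. The methionine permease gene MUP1 had 4 galactose members and TAT1 had 3. The 4 in MUP1 all lay between 288 and 295 bp and need not be separate insertions.

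Among the 7 lists the lowest levels per gene were those of nucleoporins and of aminoacyl-tRNA synthetases, a list that left out YDR341C. The 18 eligible nucleoporin genes had 27 galactose members (1.50 per gene, 0.989 to 2.18), against 48 in the middle and 29 in the last 500 bp. NUP82 had 3 members and NUP157 had 2. The 14 eligible genes on the list of cytosolic aminoacyl-tRNA synthetases had 21 members (1.50 per gene, 0.929 to 2.29), against 32 in the middle and 39 in the last 500 bp. Among 96-base intervals the listed synthetase genes had 3 members in 3 genes, against 8 sites in the middle and 11 in the last 500 bp. GRS1, the glycyl-tRNA synthetase, and DED81, the asparaginyl-tRNA synthetase, led the list with 3 galactose members each, none of 96 bases. The arginyl-tRNA synthetase gene YDR341C, which was not on the list, had 12 galactose members, 3 of them of 96 bases. The level of the list therefore does not stand for all cytosolic synthetase genes. Over all genes a mean of 0.865 members of 96 bases fell on each gene, against 0.214 in the listed synthetase genes.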

How the data were processed

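Ty1 insertion reads from 2 libraries were used. The submitters' processing notes name the build R64 (sacCer3) and, with no settings, BWA 0.7.19, Trimmomatic 0.39, Picard 3.4.0, bedtools 2.31.1 and SAMtools 1.22. The deposited files list aligned reads as positions, other than counts, with a mapping quality score set by the authors' processing that ran from 30 to 60. The galactose file held 170698 intervals and the dextrose file 11577. No site held more than 1 interval of 96 bases.

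Gene positions came from a RefSeq table of R64, and strand from the systematic name. Python 3.11.15, numpy 2.4.6, pandas 2.3.3 and scipy 1.17.1 were used. Density is sites per kb of positions over 2 kb from tRNA genes. Intervals are at 95%: Clopper-Pearson for shares, Poisson for counts, conditional binomial for ratios and Newcombe for differences of shares. PCR reads carry no molecular identifiers here and are not independent molecules, so the intervals cover counting error only. The counting steps were tested on simulated data.

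Named genes were the 10 with the most galactose members, the 10 with the most of 96 bases, the 5 with the most dextrose members and the 2 highest of each of 7 lists. Members and lists were chosen with earlier results of these data known. No sequence is shown because no genome sequence was used here.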

Additional observations from a re-analysis of the deposited data

Results flagged for a closer look

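The ratio of the first to the last 500 bp lay on opposite sides of 1 in the 2 libraries. Over all intervals it was 0.998 in galactose and 1.08 in dextrose, and among intervals of 50 to 95 bases 0.993 in galactose and 1.06 in dextrose. Each ratio's 95% interval included 1, and the difference between the libraries was not tested.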

How the results depend on the processing

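The galactose excess of the first over the middle 500 bp (1.11) kept its direction under all alternatives but one: sites with at least 2 intervals gave 0.971 (0.892 to 1.06). That alternative left out most full-length sites and cannot check their excess. The galactose ratio moved to 1.37 with 96-base intervals, also without sites shared by both libraries or without GIT1, to 1.02 with 50 to 95 bases, 1.24 with at most 49 bases and 1.17 with the 3′ end. The dextrose ratio (1.05) moved to 1.46 with 96-base intervals, and for 96-base intervals alone to 1.47 without shared sites and 1.43 without GIT1. It moved to 1.18 with at most 49 bases and 0.941 with 300 bp windows. The first-to-last ratio moved in galactose to 1.05 with 300 bp windows, and in dextrose to 0.754 with at least 2 intervals and 0.921 in genes of 3000 bp or more. The galactose share of sites moved to 7.60% with 96 bases, 9.03% with 50 to 95 bases, 5.09% with at most 49 bases, 9.96% with at least 2 intervals, 8.67% counting intervals and 9.42% with the 3′ end, and the dextrose share to 8.43% with at most 49 bases and 8.84% with at least 2 intervals. The sense share moved in galactose to 43.4% with at most 49 bases and 51.9% with at least 2 intervals, and in dextrose to 56.7% with 96 bases and 65.4% with at least 2 intervals. The galactose spacing moved to 63 bp with 50 to 95 bases, 126 bp with merged sites and 203 bp with the 3′ end, and the dextrose spacing to 183 bp with 96 bases, 185 bp with a wider running mean and 213 bp over positions 1 to 1000. The cause of these moves was not tested.

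A greater distance from tRNA genes (over 5 kb), complete windows only, genes without overlap, genes away from chromosome ends, merged sites and removal of the 10 most-hit genes left the first-to-middle ratio and, where run, the first-to-last ratio inside their 95% intervals in both libraries. Leaving out 2 kb around 11 other RNA polymerase III genes removed 8 galactose members and no dextrose member, and the galactose share of sites became 8.52% in place of 8.32%. That alternative and those without GIT1 or without 54 and 78 bases were chosen after seeing the data. Density per MseI-reachable position was not run, as no genome sequence was used here. No paired analysis was possible because each medium had 1 library. At 90 dextrose members of 96 bases, differences along the window were not detectable at this depth.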
